A study of Rattus norvegicus with 2 samples.

Results

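The genes of bacterial lipopolysaccharide (LPS) recognition were followed through 2 single-cell libraries of neonatal rat heart cells, to see which cell classes held transcripts for sensing LPS. The list was set by gene symbol and has 8 members: the receptors *Tlr4* and *Tlr2*, the co-receptors and transfer protein *Cd14*, *Ly96* and *Lbp*, the adaptors *Myd88* and *Tirap*, and the inhibitor *Irak3*. By symbol, 7 of the 8 were found among the 25399 genes of the count tables. *Ly96*, which encodes the MD-2 protein, was not matched and is not analysed here.

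LPS, the outer membrane lipid of gram-negative bacteria, is taken up in plasma by LBP, handed to CD14 and then to MD-2, and the MD-2 and TLR4 pair signals across the membrane. TIRAP and MyD88 link the receptor to the IRAK kinases and to NF-κB and AP-1, while a second branch runs over the adaptors TRAM and TRIF. TLR2 recognises bacterial lipoproteins and shares CD14 and MyD88 with TLR4, and IRAK3 (IRAK-M) is an IRAK family member without kinase activity that restrains this pathway, best known from macrophages made tolerant to LPS.

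Hearts of Sprague-Dawley rats aged 1 to 3 days, pooled from both sexes, gave cells that a Percoll gradient had enriched for intrinsic cardiac adrenergic (ICA) cells, small cells of the heart that make catecholamines. In the LPS library the cultured cells had received 1 µg/mL LPS for 2 h, and in the control library saline for 2 h. Each condition had a single library of pooled animals, so there is no replicate and no p-value, and every interval printed here covers counting error alone. Levels are UMIs (unique molecular identifiers, counted transcripts) summed over the cells of a cluster, per 1000000 UMIs of that cluster (CPM), with exact Poisson intervals at 95%. Ratios carry exact conditional intervals, shares of cells Clopper-Pearson intervals, and a count of 0 is read as allowing 3 UMIs. Levels are compared between clusters and libraries, not between genes, since 3′ libraries do not capture all genes alike.

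The authors' table sorted 11529 control and 12681 LPS cells into 11 clusters. Clusters 0, 1 and 7 are named Fibroblast, cluster 3 ICA and Cardiomyocyte, clusters 4 and 5 Endothelial and cluster 6 Macrophages, while clusters 2, 8, 9 and 10 carry no type. Cluster 0 alone held 6600 control and 7030 LPS cells, against 281 and 291 macrophages and 836 and 929 cells of cluster 3. Cluster 10, with 16 and 26 cells, is not compared. The summed level of 10 macrophage markers was 7727 and 6001 CPM in cluster 6 and between 12.5 and 55.6 CPM in every other cluster, and the 3 B and T cell markers found were at 0 throughout. The 7 cardiomyocyte markers summed to 10313 and 10891 CPM in cluster 3, and the 6 endothelial markers found to at least 925 CPM in clusters 4 and 5. Fibroblast markers, at 2201 CPM or more, were present in every cluster. The LPS library was shallower, with a median of 9434 against 12481 UMIs per cell, and 194 barcodes occurred in both libraries, 76 of them in the same cluster. No doublet caller was run.

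*Tlr4*, the receptor through which LPS signals, was sparse in all classes and highest in control macrophages. Over all clustered cells it had 247 control and 168 LPS UMIs. The 281 control macrophages held 30 UMIs, or 9.63 CPM (6.50 to 13.8), and the 291 LPS macrophages held 4 UMIs, or 1.61 CPM (0.438 to 4.12). Set against control, the LPS level was 0.167-fold (0.043 to 0.474), the one value of *Tlr4* that lay beyond 2-fold in either direction among the clusters with 20 UMIs or more. At a minimum of 50 UMIs it would not be called. Among all genes with at least 20 UMIs in cluster 6, 15.7% were at least 2-fold lower in the LPS library.

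In the fibroblasts of cluster 0, *Tlr4* had 139 control and 113 LPS UMIs, with levels of 1.54 CPM (1.29 to 1.81) and 1.53 CPM (1.26 to 1.84). The ratio was 0.997 (0.771 to 1.29), a log2 ratio of -0.002. This log2 ratio was 0.67 in cells thinned to 3000 UMIs each and 0.05 with the mean of the cells' own CPM. Endothelial cluster 4 had 28 and 14 UMIs, or 2.52 and 1.44 CPM, and endothelial cluster 5 had 12 and 11 UMIs, or 2.82 and 2.42 CPM. Their ratios, 0.571 (0.278 to 1.12) and 0.856 (0.342 to 2.12), had intervals that include 1. In cluster 4 the log2 ratio went from -0.78 to -0.45 when cells outside cluster 6 with 3 or more macrophage markers were left out. Clusters 1 and 2 had 22 and 12 control UMIs, and 13 and 9 LPS UMIs. Cluster 3 had 2 UMIs in each library, at 0.283 CPM (0.034 to 1.02) and 0.365 CPM (0.044 to 1.32), and cluster 9 had 1 UMI in each. Clusters 7 and 8 had none, which allows up to 2.06 and 2.70 CPM in their control cells and 1.97 and 2.86 CPM in their LPS cells.

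In the control library the macrophage level of *Tlr4* was 3.41 times (1.70 to 7.32) that of the next class, cluster 5, and no other pair of neighbours in the order of clusters could be told apart. In the LPS library no pair of neighbours could be told apart. The fibroblasts of cluster 0 contributed 56.3% of the control *Tlr4* UMIs with 57.2% of the cells, and 67.3% of the LPS UMIs with 55.4% of the cells. The macrophages contributed 12.1% and 2.38%, with 2.44% and 2.29% of the cells. Most *Tlr4* UMIs of both libraries lay in cells of cluster 0.

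**Figure D1:**
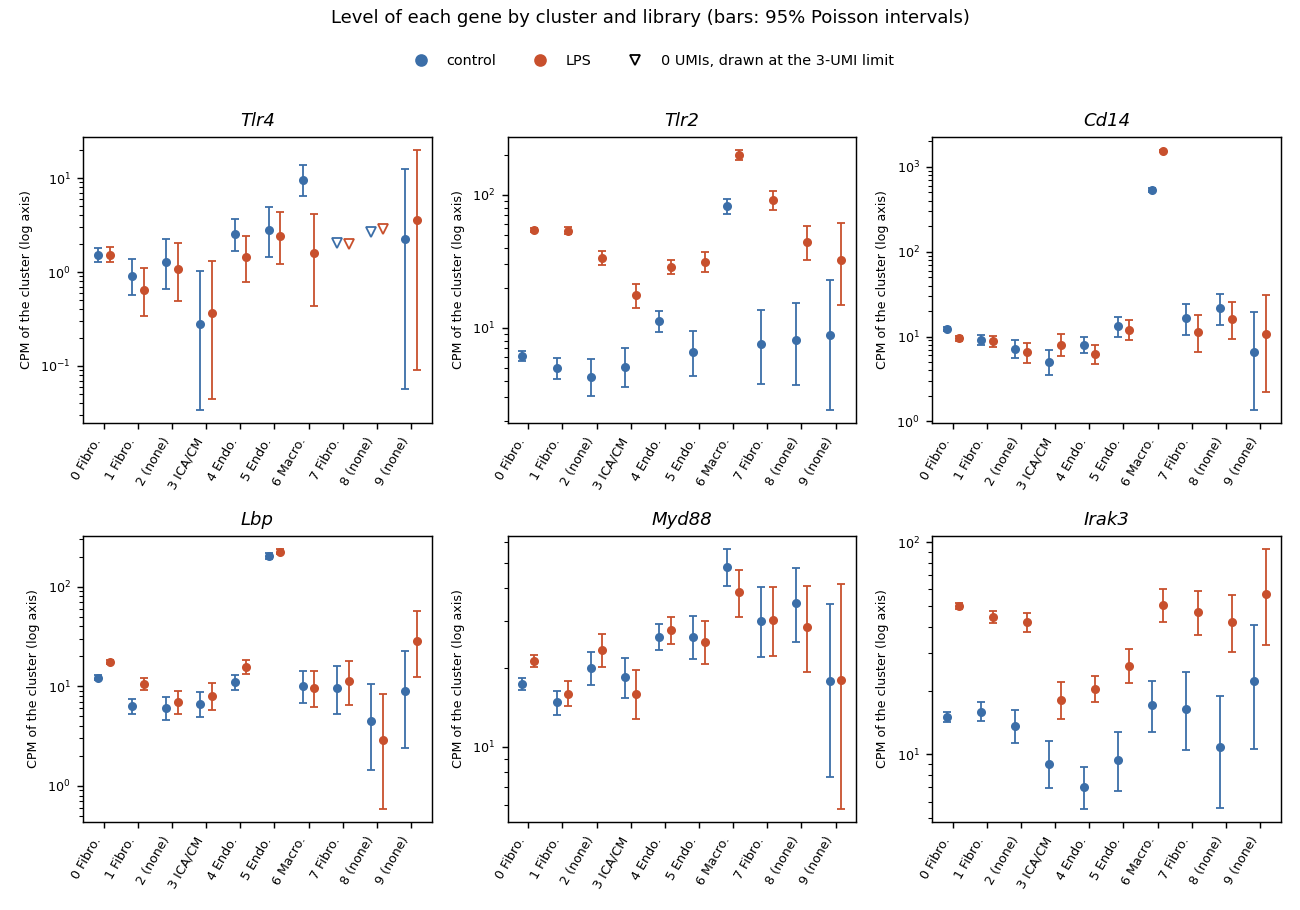
Level of each gene (CPM, log axis) in clusters 0 to 9 of the control (blue) and LPS (red) library, with exact Poisson intervals at 95%; open triangles mark 0 UMIs at the 3-UMI limit. *Cd14* stands out in cluster 6 (533 and 1536 CPM) and *Lbp* in cluster 5 (202 and 224 CPM), while the red points of *Tlr2* and *Irak3* lie above the blue ones in every cluster.

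Droplets also capture free RNA, so low levels outside macrophages were set against macrophage markers, which fibroblasts and endothelial cells were taken to lack. In endothelial cluster 5, though, the highest of these markers stood at 9.41% (control) and 12.4% (LPS) of its macrophage level. The medians of the markers there were 0.653% and 0.552%. In control cluster 0, *Tlr4* stood at 15.9% (10.7 to 24.5) of its macrophage level, and the 10 markers stood at 0.409% to 0.975% of theirs. *Tlr4* in control clusters 1, 2, 4 and 5 stood at 9.51%, 13.3%, 26.1% and 29.3% of the macrophage level, above all 10 markers in each. Cluster 3 stood at 2.93% (0.340 to 11.6), with markers at 0.190% to 1.08%, and this interval overlaps the range of the markers. In the LPS library, where the macrophage level itself rests on 4 UMIs, *Tlr4* in cluster 0 was at 95.2% (36.2 to 355) of it.

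**Figure D2:**
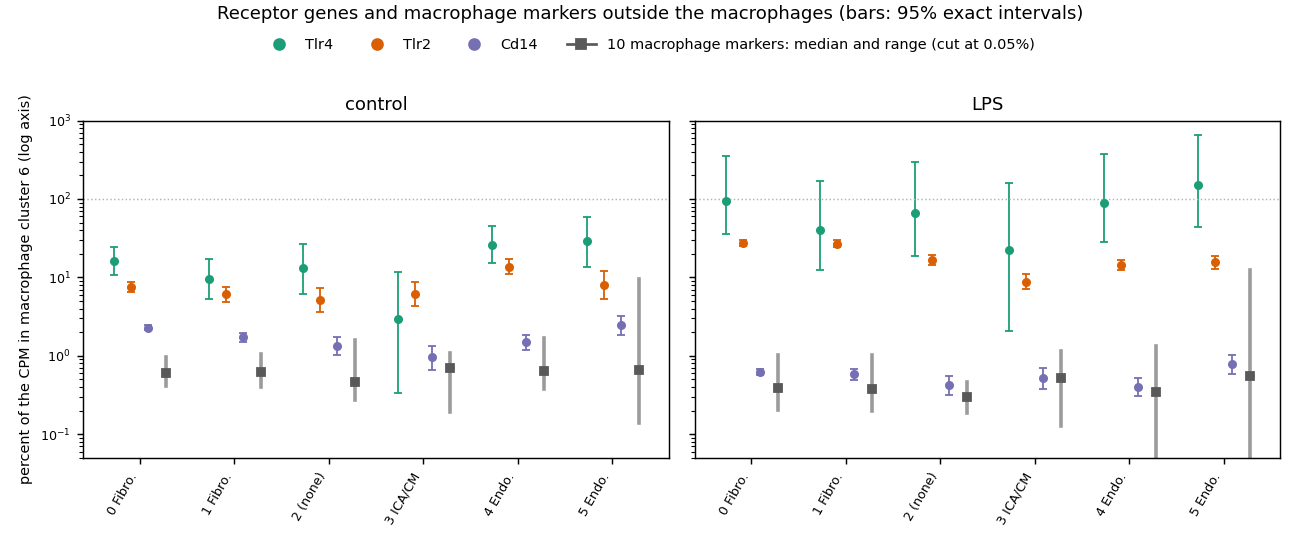
*Tlr4*, *Tlr2* and *Cd14* in clusters 0 to 5 as a percent of their CPM in the macrophages of cluster 6 (log axis, exact intervals at 95%), with the median and range of 10 macrophage markers in grey. In control cells *Tlr4* and *Tlr2* lie above the markers in clusters 0, 1, 2 and 4, and in LPS cells *Cd14* lies inside their range in all 6 clusters.

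Few single cells showed a *Tlr4* transcript at all. Once each cell had been thinned to 3000 UMIs, a *Tlr4* UMI was seen in 2.85% (1.24 to 5.53) of control macrophages and in 0.345% (0.00873 to 1.91) of LPS macrophages, against 9.61% and 1.37% of unthinned cells. In cluster 0 the thinned shares were 0.364% (0.233 to 0.541) and 0.584% (0.419 to 0.791), against 2.05% and 1.56% of unthinned cells. At 1500 UMIs per cell the shares of cluster 0 were 0.348% and 0.242%. This order and the unthinned one go against the order at 3000 UMIs, so no direction is read from these shares. In cluster 3, where both libraries had 2 UMIs, thinning left a UMI in 0 of 836 control and 2 of 926 LPS cells, the former allowing a share of up to 0.359%. The median cell held 12968 and 9821.5 UMIs in cluster 0, 8846 and 6900 in cluster 6, and 7526 and 5269 in cluster 3.

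The ICA cells were approached through *Dbh*, dopamine beta-hydroxylase, which makes noradrenaline. The paper took its ICA cells as a subcluster of cluster 3, which the cell labels used here do not mark. Cells with a *Dbh* UMI therefore need not be the same set. Within cluster 3, 156 control and 121 LPS cells had a *Dbh* UMI, and none of them had a *Tlr4* UMI. With 1462195 and 723418 UMIs in these cells, 0 allows up to 2.05 and 4.15 CPM. Both limits lie above the level in the fibroblasts of cluster 0 (1.54 and 1.53 CPM), so a count of 0 does not exclude a fibroblast-like level in either library. The cells of cluster 3 without *Dbh* had 2 *Tlr4* UMIs in each library, or 0.356 CPM (0.0431 to 1.29) and 0.420 CPM (0.0509 to 1.52).

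The other members were present in the *Dbh* cells at low counts. *Myd88* had 32 control and 15 LPS UMIs (21.9 and 20.7 CPM), and *Irak3* had 18 and 11 (12.3 and 15.2 CPM). *Tlr2* had 8 and 7 UMIs (5.47 and 9.68 CPM), *Cd14* 7 and 2 (4.79 and 2.76 CPM) and *Lbp* 17 and 9 (11.6 and 12.4 CPM). The intervals of these 5 genes overlapped between the libraries, and also between *Dbh* cells and the remaining cells of cluster 3. Overlap of separate intervals does not show equal levels, and no ratios were computed here. Control *Lbp* had 11.6 CPM (6.77 to 18.6) in *Dbh* cells and 5.34 CPM (3.60 to 7.63) in the remaining cells. Macrophage markers summed to 53.3 and 16.6 CPM in the *Dbh* cells, and fibroblast markers to 3894 and 3197 CPM, and their part in these counts was not tested. Cardiomyocyte markers summed to 9861 and 10424 CPM in the *Dbh* cells. In the remaining cells of cluster 3 they summed to 10430 and 10962 CPM. *Nfkbia*, the NF-κB inhibitor that NF-κB itself induces, was at 58.1 CPM (46.4 to 71.9) in control and 224 CPM (191 to 261) in LPS *Dbh* cells.

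*Tlr2*, the lipoprotein receptor, was at least 2-fold higher in the LPS library in each of the 9 clusters where it had 20 UMIs or more. In cluster 0 it went from 557 to 3998 UMIs, or from 6.15 CPM (5.65 to 6.69) to 54.2 CPM (52.5 to 55.9), a ratio of 8.81 (8.06 to 9.64). Fibroblast clusters 1 and 7 gave ratios of 10.8 (8.92 to 13.1) and 12.0 (6.53 to 24.7). The macrophages held 255 and 493 UMIs, or 81.9 CPM (72.1 to 92.6) and 198 CPM (181 to 217), a ratio of 2.42 (2.08 to 2.83).

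The lowest ratios of *Tlr2* were in macrophages and the endothelial cells of cluster 4, whose control levels were the highest. The control level is also the denominator of the ratio, so no relation between the 2 is read from this. Cluster 7, at 7.54 CPM in control and above cluster 0 (6.15 CPM), had the highest ratio, 12.0. Cluster 4 had 124 and 279 UMIs, or 11.1 and 28.7 CPM, a ratio of 2.57 (2.07 to 3.20), and cluster 5 had 28 and 142, or 6.59 and 31.2 CPM, a ratio of 4.74 (3.14 to 7.38). Cluster 3 had 36 and 96 UMIs, or 5.09 and 17.5 CPM, a ratio of 3.44 (2.33 to 5.20). Fibroblast markers summed to 3435 CPM in cluster 3 and 10684 CPM in cluster 0 of the LPS library. *Tlr2* had 17.5 and 54.2 CPM there. The part of free fibroblast RNA in the *Tlr2* level of cluster 3 and of the other classes was not tested. The untyped clusters 2 and 8 gave 7.83 (5.61 to 11.2) and 5.41 (2.62 to 12.6), and cluster 9 held 4 and 9 UMIs. The intervals of clusters 0, 1 and 7 lie wholly above those of clusters 3, 4 and 6.

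The order of the classes for *Tlr2* also differed between the libraries. In control cells the macrophages were 7.35 times (5.90 to 9.18) above cluster 4, and no later neighbours could be told apart. In LPS cells the macrophages were 2.18 times (1.81 to 2.66) above the fibroblasts of cluster 7, and these were 1.67 times (1.40 to 1.98) above cluster 0. Cluster 3 came last in the LPS library, with cluster 4 at 1.64 times (1.29 to 2.09) its level. Cluster 0 reached 27.3% of the macrophage level in the LPS library, from 7.52% in control, and macrophage markers there were at 0.204% to 1.01%.

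Counted by cells, *Tlr2* spread through the fibroblasts. The thinned share in cluster 0 was 1.91% (1.59 to 2.27) in control and 14.3% (13.5 to 15.1) in LPS cells, and the unthinned share 7.70% and 39.5%. In macrophages the thinned share was 25.3% (20.3 to 30.8) and 45.9% (40.0 to 51.8), and the unthinned share 51.2% and 70.8%. Cluster 3 had the lowest share in the LPS library, 5.29% (3.94 to 6.94) after thinning against 1.32% in control, and 9.69% and 4.19% without thinning.

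*Cd14*, which presents LPS to the TLR4 complex, had its highest level in the macrophages of both libraries. The control macrophages held 1661 UMIs and the LPS macrophages 3819, or 533 CPM (508 to 560) and 1536 CPM (1488 to 1586), a ratio of 2.88 (2.72 to 3.05). Control macrophages were 24.7 times (16.5 to 38.7) above the next class, cluster 8, and LPS macrophages 94.9 times (59.2 to 163). Cluster 6 held 50.5% of all control and 77.1% of all LPS *Cd14* UMIs.

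Outside the macrophages no class had *Cd14* at least 2-fold higher or lower. In cluster 0 it had 1106 and 705 UMIs, or 12.2 CPM (11.5 to 13.0) and 9.56 CPM (8.87 to 10.3), a ratio of 0.782 (0.711 to 0.860). The ratios of clusters 1, 2, 4, 5, 7 and 8 lay between 0.680 and 0.970, each with an interval that includes 1, and that of cluster 3 was 1.58 (0.993 to 2.52). The summed macrophage markers in cluster 0 were also lower, at 39.5 and 22.8 CPM, and the part of free macrophage RNA in the *Cd14* value was not tested.

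The *Cd14* level of cluster 0 was 2.29% (2.12 to 2.47) of the macrophage level in control, above all 10 macrophage markers (0.409% to 0.975%). In the LPS library it was 0.622% (0.573 to 0.674), above 8 of the 10 and inside their range of 0.204% to 1.01%. *Cd14* in LPS clusters 1 to 5 was at 0.401% to 0.787% and inside the range of the markers in each, above 8 of the 10 in clusters 1 and 2, and the part of free RNA in these levels was not tested. In control cells, clusters 0, 1, 7 and 8 stood above the range of the markers, with 1.72%, 3.08% and 4.05% in the last 3. Clusters 2, 3, 4, 5 and 9 stood inside it. They were still above 9 of the 10 markers in clusters 2, 4 and 5, and above 8 of the 10 in clusters 3 and 9.

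A *Cd14* UMI remained after thinning in 69.8% (64.0 to 75.1) of control macrophages and 95.9% (92.9 to 97.8) of LPS macrophages, from 92.2% and 99.0% before it. In cluster 0 the shares were 3.53% and 2.83% after thinning and 15.4% and 9.33% without. The macrophage with the most *Cd14* held 24 UMIs among control cells and 49 among LPS cells.

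**Figure D3:**
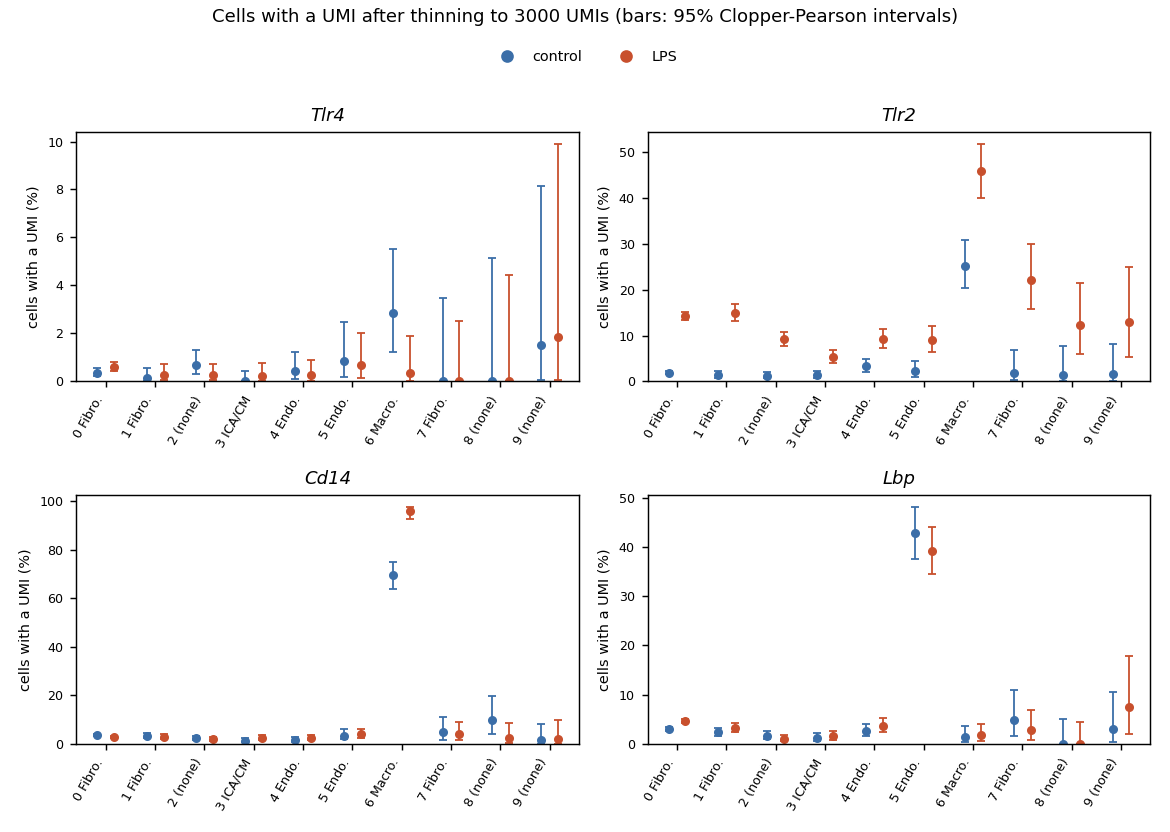
Percent of cells with a UMI of *Tlr4*, *Tlr2*, *Cd14* and *Lbp* after thinning to 3000 UMIs, by cluster and library, with Clopper-Pearson intervals at 95%. Macrophages lead for *Cd14* (69.8% and 95.9%) and *Tlr2* (25.3% and 45.9%), cluster 5 leads for *Lbp* (42.9% and 39.2%), and *Tlr4* stays at 2.85% or less in every cluster of both libraries.

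The share of cells with 2 receptor genes at once was highest in macrophages for *Tlr2* with *Cd14*, and the *Tlr4* pairs were few. Pairs were not set against the shares expected if the 2 genes were seen independently, so they do not show joint expression. After thinning, 8 of 281 control macrophages had both *Tlr4* and *Cd14*, that is all 8 with a *Tlr4* UMI. *Cd14* alone was seen in 69.8% of these 281 cells. In the LPS library the 1 macrophage with *Tlr4* had *Cd14*, which 95.9% of LPS macrophages had. In cluster 0 the pair was seen in 1 of 6600 control and 3 of 7024 LPS cells. Without thinning the *Tlr4* and *Cd14* pair was seen in 23 control and 4 LPS macrophages, 8.19% and 1.37% of them. Of control macrophages, 27 had a *Tlr4* UMI and 92.2% had *Cd14*. The pair was seen in 17 and 16 cells of cluster 0, 0.258% and 0.228% of them. After thinning, *Tlr2* and *Cd14* were seen together in 17.4% of control and 45.5% of LPS macrophages. *Tlr2* alone was seen in 25.3% and 45.9% of them. In cluster 0 this pair reached 0.061% and 0.456%. *Tlr2* and *Irak3* were seen together in 0.106% and 1.98% of cluster 0, and in 1.78% and 6.90% of macrophages. In LPS cells of cluster 0, the single shares of *Tlr2* and *Irak3* were 14.3% and 13.8%.

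*Lbp*, which transfers LPS monomers to CD14, had its highest level in endothelial cluster 5 in both libraries. That cluster held 859 and 1019 UMIs, or 202 CPM (189 to 216) and 224 CPM (210 to 238), a ratio of 1.11 (1.01 to 1.21). In cells thinned to 3000 UMIs each the log2 ratio changed sign, from 0.15 to -0.10. Its level was 16.7 times (15.2 to 18.2) that of the next class, cluster 0, in control cells. In LPS cells it was 7.83 times (3.96 to 18.2) that of the next class, cluster 9, which rests on 8 UMIs. With 3.04% and 3.49% of the cells, cluster 5 gave 35.9% and 36.0% of the *Lbp* UMIs, and cluster 0, with 57.2% and 55.4% of the cells, gave 45.9% and 45.6%.

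The other endothelial cluster, number 4, did not share this level of *Lbp*. Cluster 4 had 122 and 153 UMIs, or 11 and 15.7 CPM, which is 5.42% and 7.02% of cluster 5. The 6 endothelial markers found summed to 1850 and 1702 CPM in cluster 4 and to 1032 and 926 CPM in cluster 5. In thinned cells of cluster 5 an *Lbp* UMI was seen in 42.9% (37.6 to 48.2) in control and 39.2% (34.6 to 44.0) with LPS, against 2.63% and 3.64% in cluster 4. The unthinned values were 71.1% and 64.8% in cluster 5 and 10.6% and 8.99% in cluster 4, whose median depth (12499 and 9972 UMIs per cell) was above that of cluster 5 (10171.5 and 8998).

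Elsewhere *Lbp* was low and somewhat higher in the LPS library in fibroblasts. Cluster 0 went from 12.1 CPM (11.4 to 12.9) in control to 17.5 CPM (16.5 to 18.5) with LPS, a ratio of 1.44 (1.33 to 1.56), and cluster 1 had 6.29 and 10.5 CPM, a ratio of 1.67 (1.35 to 2.08). Cluster 4 gave 1.43 (1.12 to 1.83), and clusters 2, 3, 6 and 7 gave ratios whose intervals include 1. None of these reached 2-fold. In control cluster 0 the level of *Lbp* relative to cluster 5 was 6.0%, beside a median of 6.07% for the endothelial markers there. In LPS cluster 0 it was 7.81%, above 4 of the 6 markers, whose median was 4.30%. In control cells these markers summed to 1850 CPM in cluster 4 and 1032 CPM in cluster 5, while *Lbp* had 11 CPM in cluster 4. The markers therefore do not measure free RNA from cluster 5 alone, and the part of free RNA in the *Lbp* level was not tested.

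*Myd88*, the adaptor that most Toll-like receptors and the IL-1 receptor share, was found in all classes. It had 2889 control and 2737 LPS UMIs. The macrophages had the highest level in both libraries, 48.2 CPM (40.8 to 56.5) and 38.6 CPM (31.3 to 47.2), and their difference from the next class had an interval that includes 1. Control cluster 0 stood at 36.0% (30.5 to 42.9) of the macrophage level and control cluster 1 at 30.6% (25.2 to 37.3). The other classes ranged from 14.7 to 35.1 CPM in control and from 15.9 to 30.3 CPM in LPS cells.

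No class reached 2-fold for *Myd88*. In cluster 0 it had 1571 and 1565 UMIs, or 17.4 CPM (16.5 to 18.2) and 21.2 CPM (20.2 to 22.3), a ratio of 1.22 (1.14 to 1.31). In every other cluster the interval of the ratio included 1, with 0.802 (0.614 to 1.04) in macrophages and 0.864 (0.651 to 1.14) in cluster 3. After thinning, 15.3% and 10.0% of the macrophages, 5.20% and 6.71% of cluster 0 and 5.26% and 3.89% of cluster 3 had a *Myd88* UMI, and without thinning 40.9% and 26.5%, 20.7% and 19.3%, and 14.0% and 8.61% did.

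*Tirap*, the adaptor that brings MyD88 to TLR4 and TLR2 at the membrane, had 6 control UMIs and 1 LPS UMI in all. Of these, 3 control UMIs lay in cluster 0 and 1 each in clusters 1, 4 and 6, and the LPS UMI lay in cluster 4. At 0.039 and 0.008 CPM over all cells it was too rare for any comparison.

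*Irak3*, the inhibitor, was higher in the LPS library in all 10 clusters, and past 2-fold in 9 of them. In cluster 0 it had 1363 and 3682 UMIs, or 15.1 CPM (14.3 to 15.9) and 49.9 CPM (48.3 to 51.6), a ratio of 3.31 (3.11 to 3.53). The macrophages had 53 and 126 UMIs, or 17.0 CPM (12.7 to 22.3) and 50.7 CPM (42.2 to 60.4), a ratio of 2.98 (2.14 to 4.19). Clusters 4 and 5 gave 2.92 (2.23 to 3.84) and 2.78 (1.93 to 4.08).

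Cluster 3 had 64 and 99 *Irak3* UMIs, or 9.04 CPM (6.96 to 11.5) and 18.1 CPM (14.7 to 22.0), and its ratio of 1.998 (1.44 to 2.78) lay just under the 2-fold limit. The ratios of clusters 1, 2, 7, 8 and 9 lay between 2.57 and 3.88. In control cells no neighbours in the order of the classes could be told apart for *Irak3*. In LPS cells cluster 8 lay 1.60 times (1.11 to 2.28) above cluster 5, which lay 1.28 times (1.01 to 1.61) above cluster 4, and cluster 3 was lowest. The thinned share of cells with *Irak3* in cluster 0 was 4.26% (3.78 to 4.77) in control and 13.8% (13.0 to 14.6) in LPS cells, and the unthinned share 18.1% and 39.0%. In macrophages the thinned share was 5.69% (3.29 to 9.08) and 15.2% (11.2 to 19.8), and the unthinned share 16.0% and 34.0%.

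**Figure D4:**
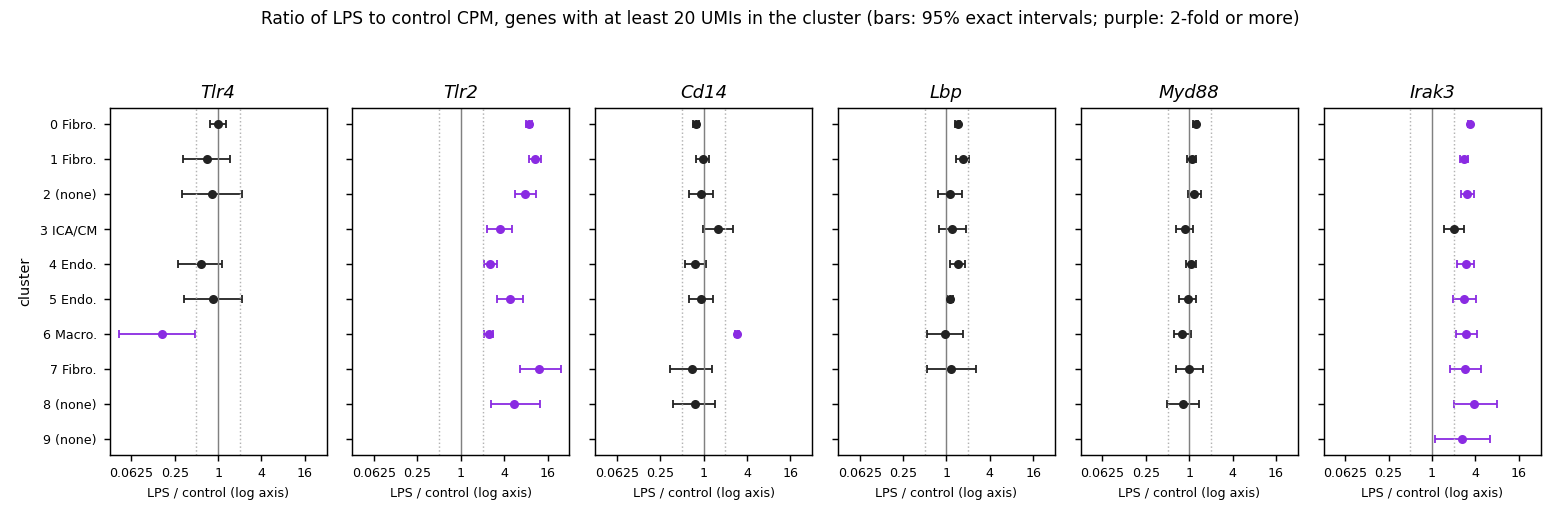
Ratio of LPS to control CPM (log axis, exact intervals at 95%) by cluster for genes with at least 20 UMIs in that cluster; the grey line marks 1, dotted lines mark 2-fold, and purple points lie at or beyond 2-fold. *Tlr2* and *Irak3* lie to the right of 1 in every cluster shown, *Cd14* lies beyond 2-fold in cluster 6 alone, and *Tlr4* lies to the left of the lower dotted line in cluster 6.

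*Tlr2* and *Irak3* were the members higher with LPS across classes, and their promoters are shown together with that of *Myd88*, which stayed within 2-fold throughout. RefSeq on build GRCr8 gave promoters, each 250 bases before to 50 bases after an annotated start, for 6 of the 8 members. Capitals mark matches on either strand to the letters of 4 motifs, kappaB (GGGA and TTCC set 2 bases apart), AP-1 (TGANTCA), C/EBP (TTGCNNAA) and PU.1 (GAGGAAGT), and to the wider kappaB consensus, which allows either purine or either pyrimidine at some positions and was added after the first 4 had been searched. The *Tlr2* promoter lies at chr2:171504508-171504807, that of *Irak3* at chr7:57598582-57598881 and that of *Myd88* at chr8:127956181-127956480, all on the minus strand, and each is printed 5′ to 3′ along its gene.
Tlr2: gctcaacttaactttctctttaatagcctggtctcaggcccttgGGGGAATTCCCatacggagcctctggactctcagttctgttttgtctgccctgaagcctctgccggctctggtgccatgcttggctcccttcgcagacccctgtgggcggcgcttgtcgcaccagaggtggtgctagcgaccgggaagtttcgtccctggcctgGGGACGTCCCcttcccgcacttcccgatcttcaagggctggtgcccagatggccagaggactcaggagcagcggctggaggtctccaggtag
Irak3: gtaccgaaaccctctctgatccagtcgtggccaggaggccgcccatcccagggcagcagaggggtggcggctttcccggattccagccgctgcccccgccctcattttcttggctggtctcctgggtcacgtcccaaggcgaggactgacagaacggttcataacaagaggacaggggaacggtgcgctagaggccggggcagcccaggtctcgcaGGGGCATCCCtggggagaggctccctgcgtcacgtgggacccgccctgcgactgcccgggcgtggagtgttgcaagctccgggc
Myd88: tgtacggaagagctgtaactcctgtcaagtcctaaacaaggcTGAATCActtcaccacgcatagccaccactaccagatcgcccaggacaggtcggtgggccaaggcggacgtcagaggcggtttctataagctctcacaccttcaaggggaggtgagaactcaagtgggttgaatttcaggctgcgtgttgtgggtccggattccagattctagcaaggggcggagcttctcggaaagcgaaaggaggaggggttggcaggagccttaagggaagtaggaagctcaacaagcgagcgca

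Of the 7 promoters of the 6 genes, *Tirap* having 2, that of *Myd88* alone held a match to the first 4 motifs, an AP-1 word from position -208 relative to the start. The wider kappaB consensus was matched in 2 of the 6 genes, *Tlr2* and *Irak3*. In *Tlr2* the matches begin at positions -206, -205 and -42, the first 2 overlapping, and in *Irak3* at -34. Over all 33469 promoters, 1.30% held the narrow kappaB word, 7.51% the wider one, 7.33% the AP-1 word, 10.6% the C/EBP word and 2.42% the PU.1 word. These counts describe letters in windows of 300 bases and no binding was measured.

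Counted over all members, the calls stand beside the share of all genes called by the same rule, which takes genes with at least 20 UMIs in the cluster and a ratio of at least 2 after 0.5 UMI is added to each sum. In cluster 0, 2 of 6 members tested were called higher, against 3.62% of 13447 genes, and 0 were called lower, against 11.2%. In the macrophages 3 of 6 were called higher (*Tlr2*, *Cd14* and *Irak3*), against 4.7% of 8401 genes, and 1 of 6 lower (*Tlr4*), against 15.7%. In cluster 3, 1 of 5 was called higher (*Tlr2*), against 2.2% of 9943 genes, and 0 lower, against 3.08%.

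In each of clusters 1, 2, 4 and 5, *Tlr2* and *Irak3* were the 2 of 6 members called higher, against 3.37%, 3.01%, 2.95% and 4.74% of all genes tested there. In cluster 7 they were 2 of 5, against 4.78%, and in cluster 8 they were 2 of 4, against 3.32%. In cluster 9 *Irak3* alone was tested and called, against 5.04%. The median log2 ratio of the members tested was 0.41 in cluster 0, 0.65 in cluster 3 and 0.62 in cluster 6, beside medians of -0.15, -0.01 and -0.34 over all genes tested. Genes of cluster 6 thus had lower CPM in the LPS library at the median, and member ratios there stand against that shift.

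Other genes of the pathway were counted in clusters 0, 3 and 6, against the same shares of all genes. Those shares were 3.62%, 2.2% and 4.7% higher, and 11.2%, 3.08% and 15.7% lower. In macrophages, 1 of 3, 1 of 8, 1 of 6, 1 of 5 and 0 of 2 tested were lower, list by list in the order below. In cluster 0 these were 1 of 4, 1 of 10, 1 of 6, 0 of 8 and 0 of 2. A lower call therefore does not set these genes apart from all genes. Of 8 other Toll-like receptors found, 4 were tested in cluster 0, 1 in cluster 3 and 3 in cluster 6, with median log2 ratios of -0.01, 0.37 and 0.38. None was called higher. *Tlr5*, the flagellin receptor, was lower in cluster 0, with 45 and 5 UMIs and a ratio of 0.136 (0.042 to 0.342). *Tlr3*, the receptor for double-stranded RNA, was lower in macrophages, with 30 and 2 UMIs, or 9.63 and 0.805 CPM, a ratio of 0.084 (0.010 to 0.329). In cluster 0, *Tlr3* had 4.13 and 4.53 CPM and was not called.

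Of the 11 kinases and ubiquitin ligases downstream, 10, 8 and 8 were tested in clusters 0, 3 and 6, with median log2 ratios of -0.09, 0.15 and 0.06. *Irak2*, the kinase that sustains the signal, was called higher in all these clusters, with ratios of 2.16 (1.88 to 2.49) in cluster 0, 2.41 (1.25 to 4.86) in cluster 3 and 5.89 (4.36 to 8.08) in macrophages. *Irak4*, the first kinase MyD88 recruits, was lower in macrophages, with 53 and 12 UMIs and a ratio of 0.284 (0.138 to 0.538). *Tab3*, a TAK1-binding protein, was called lower in cluster 0 at 22 and 8 UMIs, a ratio of 0.446 (0.172 to 1.04) whose interval includes 1. *Map3k7*, the TAK1 kinase, had 0 UMIs in clusters 0, 3, 4, 5 and 6 of both libraries, and is only listed here at 0.

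In the branch over TRIF, 6, 5 and 6 of the 6 genes found were tested, with median log2 ratios of 0.21, 0.38 and -0.14. *Ticam2*, which encodes the TLR4 adaptor TRAM, was called lower in cluster 0, with 29 and 10 UMIs and a ratio of 0.423 (0.184 to 0.893), and in macrophages, with 28 and 7 UMIs and a ratio of 0.313 (0.116 to 0.734). *Ikbke*, an IKK-related kinase, was higher in cluster 3, with 19 and 31 UMIs and a ratio of 2.11 (1.15 to 3.95). *Ticam1*, which encodes TRIF, was not matched by symbol.

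Among 8 further genes that were listed as inhibitors, 8, 3 and 5 were tested, with median log2 ratios of 0.08, -0.12 and -0.02. Whether each of these genes restrains the pathway in these cells was not tested. *Tnfaip3*, the A20 deubiquitinase, was higher in cluster 0, with 10 and 133 UMIs and a ratio of 16.3 (8.60 to 34.8), and *Cd180*, a receptor related to the Toll-like receptors, had 5 and 15 UMIs there, a ratio of 3.68 (1.27 to 12.9). In macrophages *Peli1*, a ubiquitin ligase, was higher, with 154 and 699 UMIs and a ratio of 5.69 (4.77 to 6.82), and *Ly86*, the partner of CD180, was lower, with 34 and 12 UMIs and a ratio of 0.442 (0.209 to 0.875). Of 3 other LPS-binding genes found, 2, 1 and 2 were tested, with median log2 ratios of -0.02, 0.50 and 0.73. *Casp4*, the intracellular LPS sensor, was higher in macrophages, with 12 and 26 UMIs, or 3.85 and 10.5 CPM, and a ratio of 2.71 (1.32 to 5.91). It was also called higher in endothelial cluster 4, with 141 and 271 UMIs, or 12.7 and 27.8 CPM, and a ratio of 2.2 (1.79 to 2.71), a value named after it was seen. In endothelial cluster 5, *Casp4* had 45 and 43 UMIs and a ratio of 0.892 (0.574 to 1.39). *Itgb2* of the same list was called lower in cluster 4, with 22 and 7 UMIs and a ratio of 0.364 (0.131 to 0.881). Its level there was 1.98 and 0.719 CPM, against 139 and 144 CPM in macrophages. Macrophage markers in cluster 4 summed to 49.1 and 30.2 CPM. The part of free macrophage RNA in this call was not tested, and no share of all genes called lower is given for cluster 4.

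A list of 10 early response genes of NF-κB (*Nfkbia*, *Tnfaip3*, *Cxcl1*, *Cxcl2*, *Ccl2*, *Ccl7*, *Il6*, *Icam1*, *Zfp36* and *Birc3*) was followed in each class. The list was chosen with earlier results of these data known, so its high ratios are no separate evidence of a response. The part of free RNA from other classes in these levels was not tested. Its median log2 ratio over all 10 genes lay between 2.65 and 3.91 in clusters 0 to 9. It was 3.37 in macrophages, 3.81 in cluster 0, 3.23 in cluster 3 and 3.30 in cluster 8. In cluster 8 *Tlr4* had 0 control UMIs, which allows up to 2.70 CPM. Over only the genes with at least 20 UMIs, the median was 4.21 in macrophages and 3.81 in cluster 0. By the same rule it was 3.04 in cluster 3, 2.76 in cluster 4 and 4.01 in cluster 5. Across the 10 clusters, the control level of *Tlr4* and the median over all 10 genes had a Pearson r of 0.07 and a Spearman rho of 0.18. Clusters 7 and 8 entered with a *Tlr4* level of 0, and clusters 3 and 9 with levels resting on 2 and 1 control UMIs. For *Tlr2*, *Cd14*, *Lbp*, *Myd88* and *Irak3* the Pearson values lay between -0.10 and 0.48. The points share libraries, free RNA and culture medium, and these values are given as a description only.

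Cells with and without a detected *Tlr4* UMI were set side by side for the summed response list, after thinning. In LPS cells of cluster 0 the list had 12951 CPM (12323 to 13603) in the 41 cells with *Tlr4* and 12624 CPM (12576 to 12672) in the 6983 without, with medians of 37 and 36 UMIs per cell. In control cells of cluster 0 it had 1125 CPM (893 to 1398) in 24 cells with *Tlr4* and 846 CPM (833 to 859) in 6576 without, with a median of 2 UMIs in both. The first pair of intervals overlaps and the second does not, but these intervals leave out the spread between cells. The quartiles in control cells were 1 and 5 UMIs with *Tlr4* and 1 and 3 UMIs without.

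Other classes gave few cells with *Tlr4*. Control macrophages had 9833 CPM (8619 to 11171) in 8 cells with it and 9640 CPM (9428 to 9855) in 273 without. Control cluster 4 had 8333 CPM (6555 to 10446) in 3 cells and 1596 CPM (1543 to 1650) in 720, and control cluster 5 had 3333 CPM (2249 to 4759) in 3 cells and 744 CPM (693 to 799) in 347. In these endothelial clusters the value with *Tlr4* was higher beyond counting error, but it rests on 3 cells each. The median was 30 UMIs of the list with *Tlr4* and 2.5 without in cluster 4, and 3 and 1 in cluster 5. In control macrophages it was 28 and 24. Whether the endothelial cells with *Tlr4* were doublets was not tested. In the LPS library, clusters 1, 4 and 5 gave 4, 2 and 3 cells, at 11583, 14167 and 10333 CPM against 12326, 10854 and 12088 CPM without *Tlr4*, and the macrophages gave 1 cell, at 65667 against 50819 CPM. Control cluster 1 had 500 CPM in 2 cells and 725 CPM in 1293. At 3000 UMIs per cell most cells that carry the transcript show none, so the cells without a UMI are not cells without *Tlr4*.

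For each member with at least 200 UMIs, the 3 genes with the most similar pattern were taken by Pearson correlation of log2(CPM + 1) over 20 points, the 10 clusters of both libraries, among 11302 genes. *Tlr4* was followed by *Cnr2*, a cannabinoid receptor (0.80), and *Nfatc1*, a transcription factor (0.80), both of which, like *Tlr4*, were highest in macrophages in control cells. *Tlr2* was followed by the chemokines *Ccl7* (0.96), *Cxcl3* (0.95) and *Cxcl2* (0.93), highest in macrophages in both libraries. *Cd14* was followed by *Mcemp1*, *LOC24906* and *Scimp*, with values of 0.96 to 0.97, all highest in cluster 6.

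*Lbp* was followed by *Man1a2*, a mannosidase of glycoprotein processing (0.90), *Hapln1*, a hyaluronan link protein (0.90) and *Sall1*, a transcription factor (0.88). All of them were highest in cluster 5 in both libraries, with *Hapln1* at 36.5 and 29.2 CPM there and 2.16 and 1.54 CPM in cluster 4. *Myd88* was followed by *Cib1*, *Hebp1* and *Dram2*, at 0.82 to 0.84. *Irak3* was followed by *Rab32*, a small GTPase (0.94), *Ptges*, prostaglandin E synthase (0.93) and *Cxcl6*, a chemokine (0.92), which had 7134, 5956 and 16318 control UMIs and 33909, 25778 and 188116 LPS UMIs.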

How the data were processed

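Droplet libraries (Chromium Single Cell 3′, v2 kit) of LPS- and saline-treated cells were analysed. The deposited values are raw UMI counts of each gene in each barcode, which the authors had not normalized. The submitters' processing notes name Cell Ranger 2.2.0 and Seurat 2.3.4. The genome build and annotation are not given in the sources used here. Classes are the authors' clusters from RunCCA and FindClusters at a resolution of 0.5, and 2 control and 8 LPS barcodes without a cluster were left out. The libraries held 152624585 and 127580475 UMIs.

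UMIs were summed per cluster and library with pandas 2.3.3, scipy 1.17.1 and numpy 2.4.6 under Python 3.11.15. Shares were taken after thinning without replacement to 3000 UMIs with seed 1. The calculations were tested on simulated data. Members, gene lists and markers were chosen with earlier results of these data known. All members were named, as were the 3 genes most like each one (1 of them, for *Tlr4*, is not reported here) and pathway genes past 2-fold in clusters 0, 3 or 6. Alternatives were filters on cells (including the 8% with most UMIs, where doublets would be most common), other scalings, depths and minimum counts, the mean of the cells' own CPM, Spearman correlation and, added after the data were seen, leaving out barcodes found in both libraries and a wider kappaB consensus. *Ly96*, *Ticam1*, *Tlr13*, *Itgam*, *Pecam1* and *Cd79a* were not matched by symbol.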

Additional observations from a re-analysis of the deposited data

Results flagged for a closer look

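*Cd14* was higher in the macrophages and lower in the largest fibroblast cluster of the LPS library, past counting error in both. Its log2 ratio of LPS to control was 1.53 in cluster 6 and -0.35 in cluster 0. The difference between the classes was not tested, since each condition has 1 library. The summed macrophage markers were also lower in cluster 0 of the LPS library, at 22.8 against 39.5 CPM, and their part in the *Cd14* value was not tested.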

How the results depend on the processing

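Of 408 log2 ratios computed under 8 alternatives for the 51 member and cluster pairs tested, 390 stayed inside the counting interval of the reported value and 18 did not. The sign changed in 25, of which 9 came with thinning, and in 1 of these the reported interval had excluded no difference (*Lbp* in cluster 5). With median-of-ratios scaling, which shifts the middle of all genes by -0.13 in cluster 0 and -0.30 in cluster 6, the log2 ratios in cluster 0 became 3.27 for *Tlr2*, 0.66 for *Lbp*, 0.42 for *Myd88* and 1.86 for *Irak3*, and those in cluster 6 became 1.57 for *Tlr2* and 1.82 for *Cd14*. In cells thinned to 3000 UMIs, *Tlr4* in cluster 0 became 0.67 (from -0.002), *Lbp* in cluster 0 became 0.67, and *Lbp* in cluster 5 became -0.10 (from 0.15). The cause of these changes with thinning was not tested. With the mean of the cells' own CPM, *Tlr4* in cluster 0 was 0.05. *Tlr4* in cluster 6 ranged from -3.24 to -2.14, but with a minimum of 50 UMIs it was not tested and 0 members were called lower there, and 0 were called higher in cluster 9. *Irak3* in cluster 3 lay between 0.92 and 1.15, on both sides of 2-fold. Of 84 shares at other depths 61 moved, since a share depends on depth. With Spearman correlation, between 0 and 2 of each member's 3 most similar genes were shared with the first list. No paired analysis was possible because neither condition has a second library. The depth leaves 2 *Tlr4* UMIs per library in cluster 3 and 6 control and 1 LPS UMIs of *Tirap* in all.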
